A study of Mus musculus with 8 samples.

Results

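The immunoglobulin genes read in whole livers of mice with hepatocyte alterations of the tumor suppressor gene Trp53 are described here. A gene was included when GENCODE M21 typed it as an immunoglobulin variable (V) or constant (C) gene and its raw counts over all 8 livers summed to at least 20. This rule gave 33 genes of the 49585 in the count table, or 33 of its 231 V and C genes. They comprised 11 constant genes (7 heavy, 1 kappa and 3 lambda) and 22 V genes (10 heavy, 10 kappa and 2 lambda). Joining (J) and diversity (D) segments were not part of the set. The genes were thus chosen by their summed counts, so their summed level is a description and carries no test.

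Male mice received a high-fat, choline-deficient diet from 21 days of age for 3 months, and total RNA from each liver was sequenced as a strand-specific library. In LP245/+ livers (n = 3), an Alb-Cre transgene had recombined the Trp53wm-R245W allele, so that hepatocytes expressed p53 R245W from 1 allele. In LPfl/+ livers (n = 2), the same transgene had deleted 1 floxed Trp53 allele. The LP+/+ controls (n = 3) were labelled Alb-Cre0, with an unrecombined Trp53fl/+ allele in replicates 1 and 2 and an unrecombined Trp53wm-R245W/+ allele in replicate 3. The study's text, by contrast, describes LP+/+ mice as carriers of the transgene in one place and allows Cre-negative littermates in another, so the control genotype is given here as labelled. The albumin promoter drives Cre in hepatocytes and cholangiocytes, so B cells and plasma cells kept wild-type Trp53 in every group. The labels gave no strain. Where 3 or 2 values follow each other for a genotype, they stand in the order of the replicates. Totals ran from 26304526 to 31370714 counts per liver. The numbers that end the sample descriptions, here called sample numbers, fell into 2 consecutive series. The first held all LP245/+ livers with LP+/+ replicates 2 and 3, the second both LPfl/+ livers with LP+/+ replicate 1. The labels do not say what these numbers stand for.

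An antibody is built from 2 identical heavy and 2 identical light chains. Each B cell joins 1 V gene to D and J segments for its heavy chain, and 1 V gene to a J segment for its kappa or lambda light chain. The constant gene spliced behind the heavy V exon sets the isotype. Ighm (IgM) and Ighd (IgD) are used first, and class switching can later replace them by an Ighg gene (IgG) or Igha (IgA). Daughters of 1 B cell keep the same V genes, and plasma cells secrete the product in large amounts. In the liver, IgA reaches bile through the polymeric immunoglobulin receptor, encoded by Pigr.

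In GRCm38 the heavy constant genes lie on the minus strand of chromosome 12, from Ighm (chr12:113418558-113422730) to Igha (chr12:113254830-113260236), with the Ighd and Ighg genes between them. Igkc, the single kappa constant gene, lies at chr6:70726435-70726966 on the plus strand, and Iglc1 at chr16:19061618-19062071 on the minus strand. The V genes lie in clusters on the same chromosomes as their constant genes.

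In 9 of the 22 V genes more than 50% of all counts came from 1 liver. Their germline coding ends are printed because the results on V gene use turn on these genes. Each line is the last 90 coding bases in GENCODE M21, 5′ to 3′. Capitals mark the in-frame run TANTNNTGT or TANTNNTGC, where N is any base, whose last 3 letters encode the conserved cysteine near the end of the V gene. On the coding strand 1 of these runs was present in the last 90 bases of 107 of 113 heavy V genes (94.7%) and 99 of 102 kappa V genes (97.1%), so it is common to V genes as a whole. The kappa ends carry 23 bases after the capitals and the heavy ends 6 or 8, except Ighv3-8, whose annotated coding stretch runs on for 55.
Ighv3-8: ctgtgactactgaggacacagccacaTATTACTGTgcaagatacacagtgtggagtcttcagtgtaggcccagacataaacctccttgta
Ighv5-9-1: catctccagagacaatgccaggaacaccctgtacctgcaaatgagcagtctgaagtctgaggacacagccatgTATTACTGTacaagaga
Ighv1-42: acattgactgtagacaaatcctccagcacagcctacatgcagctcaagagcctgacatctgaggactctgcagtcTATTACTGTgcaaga
Ighv5-17: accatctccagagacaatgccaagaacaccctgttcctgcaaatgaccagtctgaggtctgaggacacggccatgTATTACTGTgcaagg
Igkv1-110: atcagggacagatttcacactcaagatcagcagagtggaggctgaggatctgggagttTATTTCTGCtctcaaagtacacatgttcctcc
Igkv8-30: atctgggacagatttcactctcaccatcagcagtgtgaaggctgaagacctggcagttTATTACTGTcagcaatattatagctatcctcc
Igkv6-17: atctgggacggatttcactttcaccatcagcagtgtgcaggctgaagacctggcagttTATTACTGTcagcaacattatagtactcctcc
Igkv1-135: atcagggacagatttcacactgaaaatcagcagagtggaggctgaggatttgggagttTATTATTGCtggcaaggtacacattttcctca
Igkv6-23: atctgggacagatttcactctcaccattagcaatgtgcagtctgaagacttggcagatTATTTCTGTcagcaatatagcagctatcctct

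These ends lie at chr12:114322327-114322416 (Ighv3-8), chr12:113736111-113736200 (Ighv5-9-1), chr12:114937113-114937202 (Ighv1-42) and chr12:113859149-113859238 (Ighv5-17), all on the minus strand. The kappa ends lie at chr6:68271178-68271267 (Igkv1-110), chr6:70371904-70371993 (Igkv6-17) and chr6:67610419-67610508 (Igkv1-135) on the plus strand, and at chr6:70117061-70117150 (Igkv8-30) and chr6:70260409-70260498 (Igkv6-23) on the minus strand. Kappa V genes differ in orientation because the locus holds genes in both directions. Over the whole coding sequence, identity between pairs of the heavy V genes ranged from 42.4% to 88.9% (median 55.6%, 45 pairs), and between pairs of the kappa V genes from 52.8% to 97.2% (median 62.1%, 45 pairs). The closest pair was Igkv1-110 and Igkv1-117. Of the 76-base windows of Igkv1-110, the length of 1 read, 30.4% occurred letter for letter in Igkv1-117, so counts of this pair are uncertain. Ighv3-8 shared no such window with any other annotated transcript, Ighv1-42 shared 8.7%, Igkv6-17 shared 25.5% with Igkv6-23 and Igkv6-25, and Ighg2c shared 0.32% with Ighg2b. Among the 33 genes, 12 shared no window.

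The 33 genes summed to 865, 600 and 1787 counts across LP+/+ replicates 1, 2 and 3. The sums were 475 and 561 counts across LPfl/+ replicates 1 and 2. In LP245/+ replicates 1, 2 and 3 they were 884, 493 and 1595 counts. Thus 2 livers of different genotype groups, LP+/+ replicate 3 and LP245/+ replicate 3, held the most immunoglobulin RNA, and both belonged to the first series of sample numbers. Both also carried the Trp53wm-R245W allele, unrecombined in LP+/+ replicate 3, the only control with it. LP245/+ replicates 1 and 2 carried it too, at 884 and 493 counts. A part of the allele or the series was not tested. Scaled to counts per 1000000 counts of the library (CPM), the sum was 35.7 ± 19.2 across LP+/+ (SD, n = 3), 19.2 ± 2.95 across LPfl/+ (SD, n = 2) and 34.8 ± 18.0 across LP245/+ (SD, n = 3). The LP+/+ and LP245/+ livers overlapped over nearly their whole range (19.8 to 57.0 against 17.4 to 53.4 CPM), and LPfl/+ replicate 2 (21.3) lay above the lowest liver of each other group. Without the 2 replicate 3 livers, a choice made after seeing the data, the means were 25.1 CPM in LP+/+ (n = 2) and 25.5 across LP245/+ (n = 2). Within the first number series, LP+/+ livers averaged 38.4 CPM (n = 2) and LP245/+ livers 34.8 (n = 3). In the second number series, LP+/+ replicate 1 was at 30.4 CPM and the LPfl/+ livers averaged 19.2 (n = 2). No LPfl/+ liver is in the first number series and no LP245/+ liver in the second, so these 2 genotypes were not compared within a series. A fit with the number series as covariate, given below, separates series from genotype only through the LP+/+ livers, of which only replicate 1 is in the second series. In whole tissue, fewer plasma or B cells and less RNA per cell cannot be told apart.

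**Figure D1:**
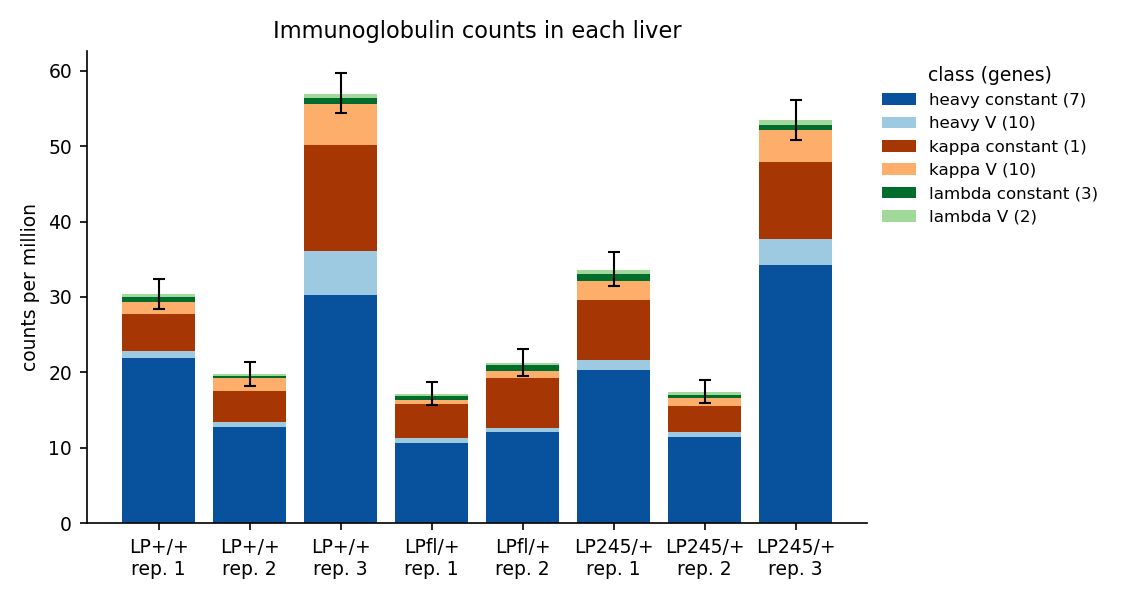
Summed counts of the 33 immunoglobulin genes in CPM of each liver's library (y axis), stacked by chain and segment, for the 8 livers (x axis). Error bars are 95% exact binomial intervals of the whole sum and cover counting error only. LP+/+ replicate 3 (57.0) and LP245/+ replicate 3 (53.4) stand above the other 6 livers, which lie between 17.1 and 33.6 CPM.

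The plot of summed counts shows that heavy constant genes held the most counts of the 6 classes in every liver. Heavy constant genes held 12.8 to 30.3 CPM in LP+/+, 10.6 to 12.1 across LPfl/+ and 11.5 to 34.3 across LP245/+. Igkc followed with 4.15 to 14.1, 4.54 to 6.61 and 3.39 to 10.2 CPM. In LP+/+ and LP245/+ the interval of the whole sum in a liver, which covers counting error only, was narrow beside the spread between livers. In LPfl/+ it was not, with intervals of 15.6 to 18.7 CPM in replicate 1 and 19.6 to 23.1 CPM in replicate 2. PCR copies were not marked by molecular identifiers, so all intervals given here cover counting error only.

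Ighm, the constant gene of IgM, had the most raw counts of the heavy constant genes. It had 480, 236 and 320 counts across LP+/+ replicates 1 to 3, 122 and 163 across LPfl/+ replicates 1 and 2, and 308, 146 and 736 across LP245/+ replicates 1 to 3. The 2 LPfl/+ livers lay below every LP+/+ liver, and LP245/+ replicate 2 lay between them in counts. Ighd, the IgD gene that naive B cells splice from the same transcript as Ighm, had 24, 32 and 40 counts across LP+/+, 17 and 16 across LPfl/+, and 23, 14 and 31 across LP245/+. Ighm exceeded Ighd 7.18-fold to 23.7-fold in counts, with the highest ratio in LP245/+ replicate 3. Both LPfl/+ livers were again below every LP+/+ liver for Ighd.

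To compare isotypes, counts were divided by the exon length of each constant gene and expressed as a share of the heavy-chain constant level of that liver. On this scale Ighm took 79.7%, 65.7% and 28.6% across LP+/+ replicates 1 to 3, 47.7% and 55.8% across LPfl/+, and 62.2%, 51.0% and 74.1% across LP245/+. Ighm was therefore the leading isotype in 7 of 8 livers. The exception was LP+/+ replicate 3, where Ighg2c, an IgG gene, led with 61.1%. In the other livers Ighg2c took 3.96% to 9.25%.

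Ighg2c was counted mainly in 1 liver. It had 19, 10 and 481 counts across LP+/+ replicates 1 to 3, 9 and 19 across LPfl/+, and 29, 13 and 62 across LP245/+. LP+/+ replicate 3 thus held 481 of 642 counts. As a share of all heavy constant counts of that liver this was 50.7%. Ighg2b, a further IgG gene, did not follow it, with 46, 33 and 29 counts across LP+/+, 31 and 55 across LPfl/+, and 32, 24 and 97 across LP245/+. Its highest liver was LP245/+ replicate 3.

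The remaining IgG genes were sparse. Ighg1 had 0, 1 and 8 counts across LP+/+, 0 and 9 across LPfl/+, and 3, 29 and 8 across LP245/+, so that 1 LP245/+ liver, replicate 2, held 29 of 58 counts. Ighg3 had 2, 0 and 1 counts across LP+/+, 3 and 0 across LPfl/+, and 0, 0 and 24 across LP245/+, with 24 of 30 counts in LP245/+ replicate 3. Where Ighg1 was at 0, the limit that a count of 0 allows (3 counts) was 0.105 CPM in LP+/+ replicate 1 and 0.108 in LPfl/+ replicate 1. Ighe, the IgE gene, had 0 counts in every liver.

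Igha, the constant gene of IgA, had no liver that stood far from the others. It had 53, 75 and 70 counts across LP+/+ replicates 1 to 3, 113 and 58 across LPfl/+, and 139, 99 and 65 across LP245/+. The genotypes overlapped. As a share of the heavy-chain constant level per exon length, Igha took 6.22%, 14.8% and 4.42% across LP+/+, 31.3% and 14.0% across LPfl/+, and 19.9%, 24.4% and 4.63% across LP245/+. The means were 8.47% ± 5.53 across LP+/+ (SD, n = 3), 22.6% ± 12.2 across LPfl/+ (SD, n = 2) and 16.3% ± 10.4 across LP245/+ (SD, n = 3), and the ranges overlapped. Single livers moved these means, to 5.32% in LP+/+ without replicate 2 and to 14.0% across LPfl/+ without replicate 1. The lowest IgA shares were those of the 2 livers with the most immunoglobulin RNA. The Igha counts of these 2 livers, 70 and 65, lay within the range of the others (53 to 139), so their low shares reflect high counts of other heavy constant genes. Without these 2 livers, a choice made after seeing the data, the mean share was 10.5% across LP+/+ (n = 2) and 22.1% across LP245/+ (n = 2). Nothing is read from this difference.

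**Figure D2:**
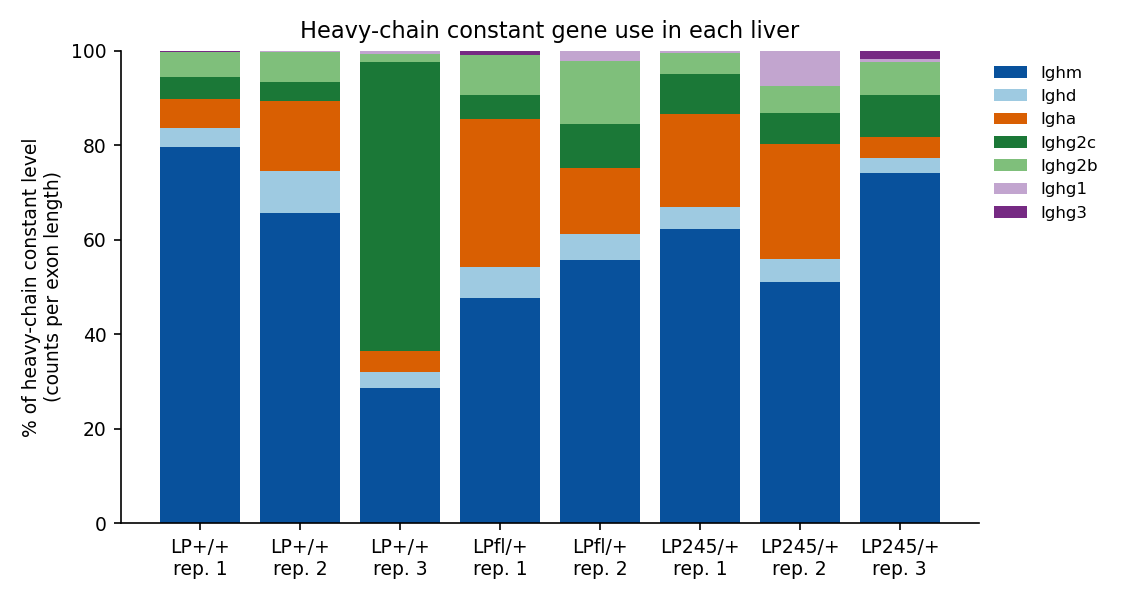
Share of each heavy constant gene in the heavy-chain constant level of a liver, in percent of counts divided by exon length (y axis), for the 8 livers (x axis). Ighm leads in 7 livers and Ighg2c, at 61.1%, in LP+/+ replicate 3, while Igha ranges from 4.42% to 31.3%.

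The plot of isotype shares shows that the ranges of the 3 genotypes overlapped for Ighm, Igha and Ighg2c. The Ighg2b share of both LPfl/+ livers (8.54% and 13.3%) lay above that of the other 6 livers (1.82% to 6.88%). Its counts overlapped, with 31 and 55 across LPfl/+, 29 to 46 across LP+/+ and 24 to 97 across LP245/+, and the share was not tested. All 4 IgG genes together took 10.1%, 10.6% and 63.5% across LP+/+, 14.4% and 24.8% across LPfl/+, and 13.3%, 19.7% and 18.2% across LP245/+.

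Light chain use varied less. Igkc had 139, 126 and 443 counts across LP+/+, 126 and 174 across LPfl/+, and 210, 96 and 304 across LP245/+. Iglc1, the most counted lambda constant gene, had 10, 2 and 19 counts across LP+/+, 4 and 16 across LPfl/+, and 14, 7 and 14 across LP245/+. Kappa took 86.8% to 93.6% of the light-chain constant level per exon length over all livers, with means of 90.4% ± 3.41 across LP+/+ (SD, n = 3), 88.7% ± 1.64 across LPfl/+ (SD, n = 2) and 90.3% ± 2.11 across LP245/+ (SD, n = 3). The ranges of the kappa share overlapped between genotypes. Iglc2 and Iglc3, further lambda constant genes, had sums of 35 and 29 counts over all livers, with 1 to 9 counts in any liver. Iglc1, Iglc3 and Iglv1 overlap the annotated antisense gene 2010309G21Rik on the other strand. On the same strand, Igkc overlaps the long noncoding RNA gene Gm30211 and Iglc2 the joining segment Iglj2, so counts of these pairs are uncertain.

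Among heavy V genes, Ighv3-8 had 0, 5 and 102 counts across LP+/+ replicates 1 to 3, 0 and 0 across LPfl/+, and 2, 1 and 9 across LP245/+. Ighv5-9-1 had 4, 0 and 38 counts across LP+/+, 0 and 0 across LPfl/+, and 0, 1 and 1 across LP245/+. Both were counted mainly in LP+/+ replicate 3, the liver with the high Ighg2c count. In that liver Ighv3-8 took 40.6% of the 251 heavy V counts (95% exact binomial interval 34.5% to 47.0%), over all 113 heavy V genes. Ighv1-42 had 0, 0 and 0 counts across LP+/+, 0 and 1 across LPfl/+, and 0, 1 and 35 across LP245/+. Ighv5-17 had 0, 0 and 1 counts across LP+/+, 0 and 0 across LPfl/+, and 3, 2 and 23 across LP245/+. These 2 genes were counted mainly in LP245/+ replicate 3, the liver with the high Ighm and Ighg3 counts, where Ighv1-42 took 20.7% of 169 heavy V counts (14.9% to 27.6%).

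The kappa V genes split in the same manner. Igkv1-110 had 6, 4 and 103 counts across LP+/+, 3 and 1 across LPfl/+, and 11, 6 and 8 across LP245/+. Igkv8-30 had 2, 5 and 24 counts across LP+/+, 0 and 2 across LPfl/+, and 7, 0 and 1 across LP245/+. LP+/+ replicate 3 was the highest liver for both, and Igkv1-110 took 47.0% of its 219 kappa V counts (40.3% to 53.9%). Igkv6-17 had 0, 0 and 5 counts across LP+/+, 0 and 0 across LPfl/+, and 2, 3 and 42 across LP245/+. Igkv1-135 had 2, 1 and 2 counts across LP+/+, 1 and 5 across LPfl/+, and 2, 1 and 26 across LP245/+. Igkv6-23 had 3, 1 and 6 counts across LP+/+, 0 and 0 across LPfl/+, and 3, 0 and 18 across LP245/+. For these 3 genes LP245/+ replicate 3 was the highest liver, with Igkv6-17 at 23.5% of 179 kappa V counts (17.5% to 30.4%).

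Of the 22 V genes, 9 had their highest count in LP+/+ replicate 3 and 7 in LP245/+ replicate 3. Among those that did not, Igkv1-117, the near copy of Igkv1-110, had 7, 27 and 8 counts across LP+/+, 0 and 2 across LPfl/+, and 26, 7 and 6 across LP245/+, and led the kappa locus in LP+/+ replicate 2 (30.0% of 90 counts) and LP245/+ replicate 1 (19.0% of 137). Igkv5-39, a further kappa gene, had 21, 0 and 13 counts across LP+/+, 4 and 0 across LPfl/+, and 8, 3 and 1 across LP245/+, and led in LP+/+ replicate 1 with 22.1% of 95 counts. Ighv1-81 was counted in every liver, between 2 and 9 counts, and led or shared the lead of the heavy locus in 4 livers with 8.33% to 13.2%. Ighv1-56 was likewise counted in every liver, from 2 to 10 counts. The leading heavy V gene had 5 counts in each LPfl/+ liver, and the leading kappa V gene 4 and 6.

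The other heavy V genes, Ighv3-6, Ighv9-3, Ighv6-3 and Ighv1-64, had sums of 27, 27, 26 and 20 counts and at most 13 in any liver. The other kappa V genes, Igkv6-15, Igkv10-96 and Igkv3-2, had sums of 31, 30 and 27 counts and at most 11 in any liver. The lambda V genes were counted in every liver, Iglv1 with 3 to 14 counts and Iglv3 with 2 to 9. Ighv1-64 was the gene closest above the limit of 20 counts. Just below it lay Ighv1-9 with 17 counts, then Ighv1-26, Ighv2-6, Igkv10-94 and Igkv8-24 with 16 each.

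**Figure D3:**
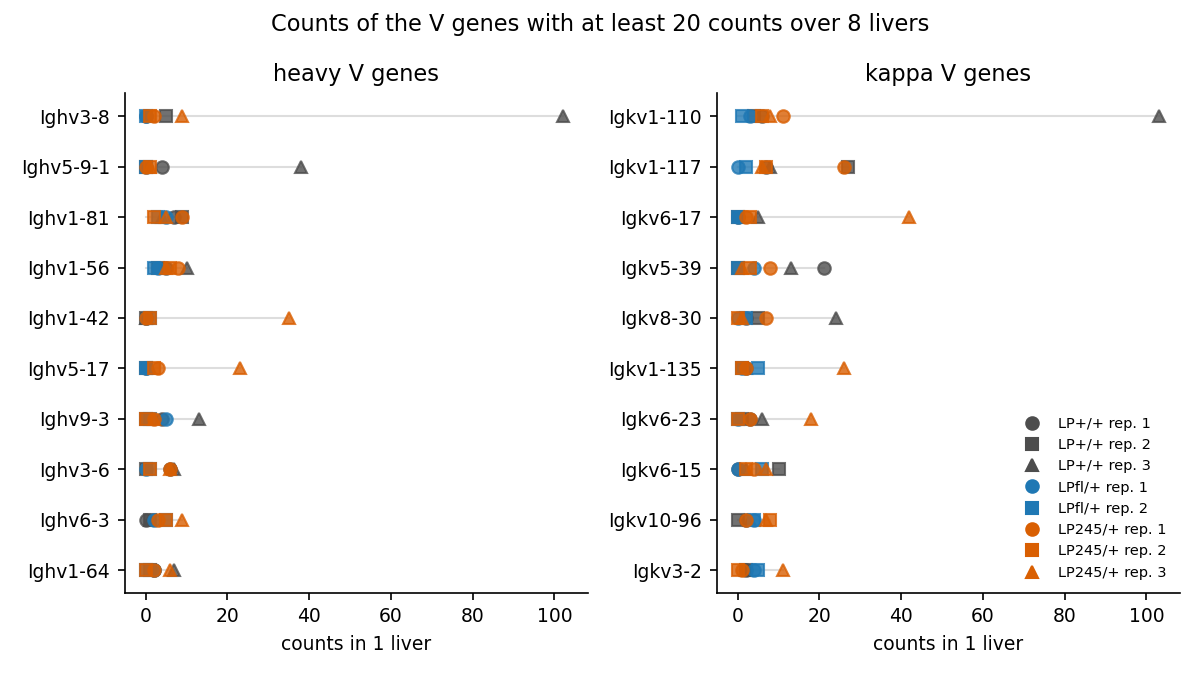
Counts of the 10 heavy and 10 kappa V genes with at least 20 counts in all (rows), in each of the 8 livers (points, with color for genotype and shape for replicate; x axis in counts). LP+/+ replicate 3 stands alone for Ighv3-8 (102 counts) and Igkv1-110 (103), and LP245/+ replicate 3 for Ighv1-42 (35) and Igkv6-17 (42).

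Counted over all 33 genes, 11 had more than 50% of their counts in 1 liver, 5 of them in LP+/+ replicate 3 (Ighv3-8, Ighv5-9-1, Igkv1-110, Igkv8-30 and Ighg2c) and 6 in LP245/+ replicate 3 (Ighv1-42, Ighv5-17, Igkv6-17, Igkv1-135, Igkv6-23 and Ighg3). Over all 19563 genes with a sum of at least 20 counts, 52 did so, or 0.266%. Among the 5628 genes with a sum of 20 to 142 counts, the range of the V genes, 34 did so, or 0.604%, and 10 of these 34 were immunoglobulin genes (the 9 V genes and Ighg3). The plot of V gene counts shows these genes as single far points. Without their highest liver 13 of the 33 genes, 12 of them V genes, would have had fewer than 20 counts, so single livers brought them into the set. By contrast, 15 of the 33 genes had counts in every liver.

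V gene use was also summarized as an effective number, the inverse of the chance that 2 counts drawn without replacement fall on the same gene. Over the 10 heavy V genes it was 6.41, 3.49 and 2.76 across LP+/+, 5.44 and 5.57 across LPfl/+, and 6.76, 6.33 and 5.20 across LP245/+. Over the 10 kappa V genes it was 3.91, 2.97 and 2.48 across LP+/+, 5.71 and 6.98 across LPfl/+, and 4.86, 6.13 and 5.41 across LP245/+. LP+/+ replicate 3 had the lowest of these values for both chains, in 183 heavy and 168 kappa counts, whereas from the Shannon entropy LP+/+ replicate 2 was lowest (3.69 against 4.01 for the heavy chain and 3.94 against 3.95 for kappa). The heavy values of the genotypes overlapped. The kappa values of the LP+/+ livers lay below the others over these 10 genes, but not over all kappa V genes, where LP+/+ replicate 1 (15.1) lay above LP245/+ replicate 3 (10.4), nor from the Shannon entropy, where it (5.20) lay above LPfl/+ replicate 1 (4.60). The values of LPfl/+ rested on 17 and 13 heavy and 16 and 25 kappa counts, and no test was made.

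Over all V genes of the table, 21 to 39 of 113 heavy V genes and 22 to 44 of 102 kappa V genes had a count in a given liver. Scaled to the same depth of 42 heavy V counts, LP+/+ replicate 3 was expected to show 15.7 genes and LP245/+ replicate 3 19.1, against 20.6 to 25.3 in the other 6 livers. At 50 kappa V counts the same 2 livers gave 16.6 and 19.5 genes, against 21.2 to 28.4. In LP+/+ replicate 3, 2 genes made up at least 50% of the counts in each locus, compared with 5 heavy and 4 kappa genes in LP245/+ replicate 3, and 6 to 9 heavy and 4 to 9 kappa genes in the other 6 livers. By family, Ighv1, the largest heavy family with 53 genes in the table, had 350 counts, then Ighv3 with 151 and Ighv5 with 103. Of the 151 Ighv3 counts, 109 came from LP+/+ replicate 3. The Igkv1 family led the kappa locus with 271 counts, 114 of them from the same liver.

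The genotype comparisons asked whether any immunoglobulin gene differed beyond the spread between livers. edgeR tested 16496 genes, of which 11 were in the set (Ighm, Igha, Ighg2c, Ighg2b, Ighd, Igkc, Iglc1, Iglv1, Igkv1-110, Igkv1-117 and Igkv5-39), while the filter on low counts removed the other 22. No member passed the cutoff, a log2 fold change of 1 or more in either direction with a Benjamini-Hochberg adjusted p of at most 0.05, in any comparison. Over all genes tested, the share passing was 0.00606% in LP245/+ against LP+/+, 0% in LPfl/+ against LP+/+ and 0% in LP245/+ against LPfl/+. edgeR without the filter, which tested all 33 members, called none of them, against 20, 14 and 122 genes of the whole table in LP245/+ against LP+/+, LPfl/+ against LP+/+ and LP245/+ against LPfl/+. This fit gave smaller standard errors than the filtered one for the 11 genes tested in both, except Ighd and Iglv1, so its p values were mostly lower. DESeq2 called no member either, against 10, 9 and 56 genes, but gave an adjusted p for only 32, 10 and 7 of the 33. The 3 comparisons share livers and are not independent.

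In LP245/+ against LP+/+, the 11 genes had a median log2 fold change of 0.00, the same as over all genes tested. Without the filter the median of all 33 members was 0.21, with 19 of 33 above 0, against a median of 0.01 and 50.9% above 0 over all genes with a sum of at least 20 counts. Among the 11 genes tested, Igha had the lowest unadjusted p, with a log2 fold change of 0.72 (SE 0.33, edgeR adjusted p = 0.831, unadjusted p = 0.0544), and 0.40 without LP245/+ replicate 1. Igkv1-110 (log2 fold change -2.04, SE 1.05) and Ighg2c (-2.17, SE 1.18) came next, also at an edgeR adjusted p of 0.831. Both changed sign without LP+/+ replicate 3, which held 103 of the 113 Igkv1-110 counts in LP+/+. Without this liver the log2 fold change of Ighg2c was 1.34, and that of Igkv1-110, which then no longer passed the filter, was 0.81 in a fit without the filter that was added after seeing the data. None of the 11 had an unadjusted p below 0.05, against 3.55% higher and 2.38% lower over all genes tested. Without the filter 12 of the 33 members did (8 higher and 4 lower), against 6.94% of all genes with a sum of at least 20 counts, with a smallest edgeR adjusted p of 0.209. By DESeq2 5 of 33 had an unadjusted p below 0.05, but no share over all genes is given for DESeq2, so nothing is read from this count. None of the 11 had livers of LP245/+ all above or all below those of LP+/+, against 6.47% and 5.09% over all genes.

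In LPfl/+ against LP+/+, the median log2 fold change of the 11 genes was -1.01, against -0.00 over all genes tested. Without the filter the median of all 33 members was -0.80, with 12 of 33 above 0, against 50.3% of all genes with a sum of at least 20 counts. The choice by summed counts bears on this direction, since 11 of the 33 genes held more than 50% of their counts in an LP+/+ or LP245/+ liver and 0 in an LPfl/+ liver, so nothing is read from it. Among the 11 genes tested, the lowest unadjusted p values were those of Igkv1-117 (log2 fold change -3.56, SE 1.26, edgeR adjusted p = 0.697), Igkv1-110 (-4.05, SE 1.53, edgeR adjusted p = 0.704) and Ighg2c (-3.48, SE 1.54, edgeR adjusted p = 0.721). These were the 3 of the 11 with an unadjusted p below 0.05 and a lower level, against 2.67% of all genes, and 0 of the 11 had one with a higher level, against 4.22%. Without the filter 10 of the 33 members had one, all with a lower level, against 7.72% of all genes with a sum of at least 20 counts, with a smallest edgeR adjusted p of 0.159. The limit from the choice by summed counts holds for this number as well. By DESeq2 7 of 33 had an unadjusted p below 0.05, but no share over all genes is given for DESeq2, so nothing is read from this count. Without LP+/+ replicate 3 the Ighg2c value was 0.02, and that of Igkv1-110 was -1.20 in the fit without the filter. Ighm had a log2 fold change of -1.19 (SE 0.57, edgeR adjusted p = 0.744). Both LPfl/+ livers lay below all 3 LP+/+ livers for 4 of the 11 genes, Ighm, Ighd, Igkv1-110 and Igkv1-117, against 12.4% of all genes. These 4 are not independent, since Ighm and Ighd can come from the same transcript and Igkv1-110 and Igkv1-117 are near copies. Both LPfl/+ livers are also in the second number series, with only LP+/+ replicate 1 of the controls.

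In LP245/+ against LPfl/+, the median of the 11 genes was 0.98, against 0.00 over all genes tested. Without the filter the median of all 33 members was 1.32, with 30 of 33 above 0, against 50.7% of all genes with a sum of at least 20 counts, and the same limit from the choice by summed counts holds. Igkv1-117 (log2 fold change 3.57, SE 1.27, edgeR adjusted p = 0.497) and Ighm (1.49, SE 0.58, edgeR adjusted p = 0.532) had an unadjusted p below 0.05 and a higher level, against 4.07% of all genes, and 0 of the 11 had one with a lower level, against 4.44%. Without the filter 6 of the 33 members had one, all with a higher level, against 9.53% of all genes with a sum of at least 20 counts, and the smallest edgeR adjusted p was 0.0576, that of Ighm. For Ighm the fold change was the same in both fits. Its SE was 0.37 without the filter and 0.58 with it, and its unadjusted edgeR p 0.000364 and 0.0278. By DESeq2 5 of 33 had an unadjusted p below 0.05, but no share over all genes is given for DESeq2, so nothing is read from this count. Without LP245/+ replicate 3 the Ighm value was 0.70. Iglv1 was next (1.40, SE 0.73, edgeR adjusted p = 0.640). All LP245/+ livers lay above both LPfl/+ livers for 3 of the 11 genes, Igkv1-110, Igkv1-117 and Iglv1, against 12.1% of all genes. Of these, Igkv1-110 and Igkv1-117 are near copies and not independent, and the compared genotypes lie in different number series. The members that passed the filter on low counts do not stand for the whole set. They were not simply the more abundant ones, since Ighv3-8 (119 counts in all) was removed and Igkv5-39 (50) was tested.

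**Figure D4:**
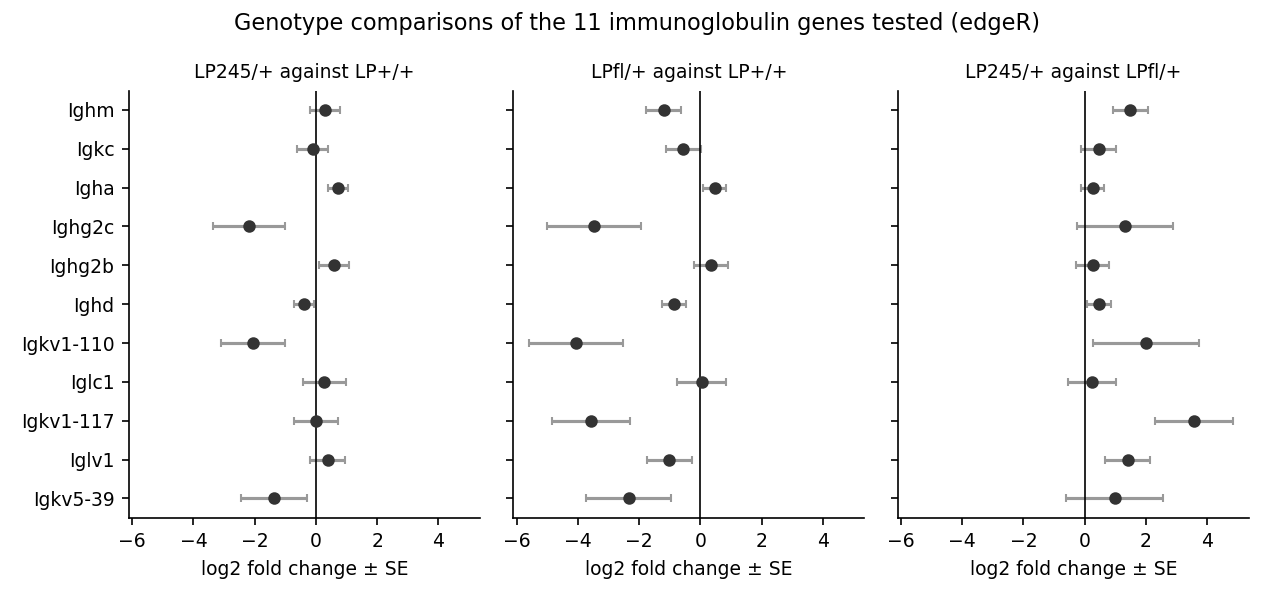
Log2 fold changes with standard errors (x axis) of the 11 immunoglobulin genes that edgeR tested (rows, the most abundant at the top), with 1 panel for each genotype comparison. The error bars are widest for Ighg2c, Igkv1-110 and Igkv5-39, and no gene passed the cutoff.

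The plot of fold changes shows wide errors. The median biological coefficient of variation, the spread between livers beyond counting, was 0.43 for the 11 genes and 0.165 over all genes tested. It was 0.91 for Ighg2c, 0.81 for Igkv1-110, 0.41 for Ighm and 0.28 for Igha.

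The source of this RNA was examined with defining genes of plasma cells and B cells. Jchain, which joins IgA and IgM into polymers, had 52, 49 and 85 counts across LP+/+, 66 and 55 across LPfl/+, and 65, 38 and 135 across LP245/+. Its 2 highest livers were the 2 with the most immunoglobulin RNA. Mzb1, an endoplasmic reticulum protein of antibody-secreting cells, had only 9, 3 and 10 counts across LP+/+, 5 and 7 across LPfl/+, and 2, 1 and 4 across LP245/+. Tnfrsf17, the survival receptor of plasma cells, had 1 count in LP+/+ replicate 2 and 0 in the other 7 livers. Prdm1, a transcription factor of plasma cells and other lineages, had 10 to 29 counts, and Derl3 had 30 to 265 with its highest value in LPfl/+ replicate 2, a liver low in immunoglobulin RNA. Sdc1, the gene of the surface marker CD138, had 4724 to 8933 counts and Xbp1 4273 to 8064. Hepatocytes express both, so they do not mark plasma cells in whole liver.

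Defining B cell genes were present at low counts, Ms4a1 at 8 to 29 and Pax5 at 9 to 26. Pax5 is switched off in plasma cells. The immunoglobulin RNA of these livers thus came with transcripts of B cell genes and of Jchain, whereas Mzb1 and Tnfrsf17 were scarce. The markers alone did not assign it to plasma cells, so the genes are called immunoglobulin genes here. Over the 15 B cell genes the sum was 15.6 ± 0.333 CPM in LP+/+ (SD, n = 3), 15.5 ± 2.10 across LPfl/+ (SD, n = 2) and 13.6 ± 1.72 across LP245/+ (SD, n = 3), with Bank1, an adaptor of B cell receptor signaling, the most abundant at 90 to 187 counts. The inhibitory receptor genes Cd72 (28 to 68 counts) and Cd22 (20 to 57) followed. LP+/+ replicate 3 (15.5 CPM) and LP245/+ replicate 3 (15.1) were not set apart by this sum. None of the 15 passed the cutoff in any comparison, and their median log2 fold changes were -0.28, -0.27 and 0.05 in LP245/+ against LP+/+, LPfl/+ against LP+/+ and LP245/+ against LPfl/+. At an unadjusted edgeR p below 0.05, Cd79b, a signaling chain of the B cell receptor, and the transcription factors Pax5 and Spib had lower values in LPfl/+ than in LP+/+ livers without passing the cutoff (3 of 15), and the complement receptor gene Cr2 a higher value (1 of 15), beside 2.67% and 4.22% of all genes. In LP245/+ against LPfl/+, Spib had a higher value (1 of 15) and Bank1 a lower one (1 of 15), beside 4.07% and 4.44%.

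**Figure D5:**
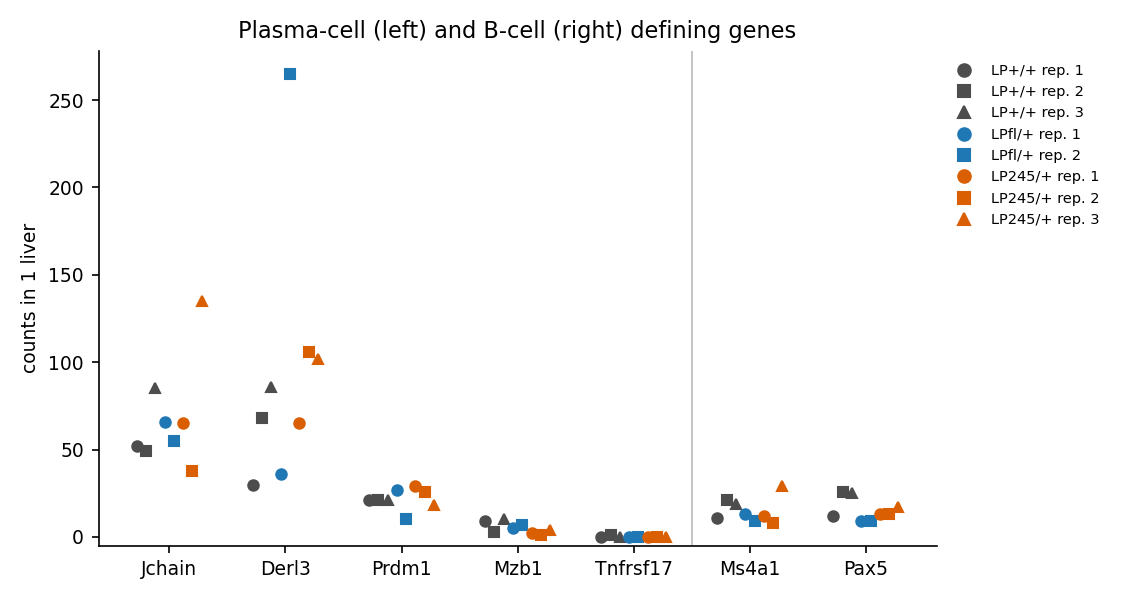
Counts of plasma cell defining genes (Jchain, Derl3, Prdm1, Mzb1 and Tnfrsf17) and B cell defining genes (Ms4a1 and Pax5) on the x axis, with counts in each of the 8 livers on the y axis (color for genotype, shape for replicate). Sdc1, which hepatocytes express, is left out. Jchain is highest in LP245/+ replicate 3 (135) and Tnfrsf17 has 1 count in 1 liver.

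The plot of marker genes shows the low counts of Mzb1 and Tnfrsf17 in every liver. Of the 17 plasma cell genes, 14 were tested and none passed the cutoff, with medians of 0.06, -0.01 and -0.01 in the 3 comparisons in the order given above. Slamf7, a surface receptor of plasma cells and other leukocytes, had 12, 25 and 16 counts across LP+/+, 9 and 12 across LPfl/+, and 37, 29 and 22 across LP245/+, and was the list's only gene with an unadjusted p below 0.05. Its log2 fold change was 0.84 in LP245/+ against LP+/+ (SE 0.36, edgeR adjusted p = 0.831, unadjusted p = 0.0421), beside 3.55% of all genes, and 1.49 in LP245/+ against LPfl/+ (SE 0.43, edgeR adjusted p = 0.402, unadjusted p = 0.00674), beside 4.07%. The sum of the list was 615 to 717 CPM in LP+/+, 600 to 775 across LPfl/+ and 640 to 685 across LP245/+, most of it from Sdc1, Xbp1 and Txndc5, a disulfide isomerase gene with 5229 to 6357 counts. Its part in the immunoglobulin values was not tested.

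The pathway around antibodies showed no call. Of 17 genes of antibody transport and Fc receptors, 15 were tested and none passed in any comparison. At an unadjusted edgeR p below 0.05, Fcgr4, an activating IgG receptor gene, had a higher value in LPfl/+ than in LP+/+ livers (1 of 15), Fcrl1, an Fc receptor-like gene of B cells, a lower one in LP245/+ than in LP+/+ livers (1 of 15), and both a lower one in LP245/+ than in LPfl/+ livers (2 of 15), beside 4.22%, 2.38% and 4.44% of all genes. Pigr, which carries polymeric IgA and IgM into bile, had 41028, 45271 and 44685 counts across LP+/+, 47920 and 40997 across LPfl/+, and 42802, 41083 and 39098 across LP245/+, a spread far smaller than that of Igha. Asgr1 and Asgr2, the subunits of the hepatocyte receptor for desialylated glycoproteins, had 9511 to 13647 and 3721 to 5344 counts. Fcgrt, the neonatal Fc receptor that recycles IgG, and Fcgr2b, the inhibitory IgG receptor, had 3295 to 4465 and 1536 to 1968 counts. Of 30 genes of class switching, survival and homing, 18 were tested and none passed. Cxcl12, a chemokine that holds plasma cells in their niche, had 5459 to 6803 counts, the adhesion molecule gene Vcam1 390 to 711, and Itga4, a subunit of the integrin that binds it, 202 to 322. Tnfsf13b (BAFF) had 7 to 20 counts and Tnfsf13 (APRIL) 1 to 8.

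Genes of the secretory machinery, which plasma cells and hepatocytes both use, were also without calls (24 of 24 tested), with Hspa5, the endoplasmic reticulum chaperone first known as the immunoglobulin binding protein, at 20643 to 45666 counts. Hsp90b1, a further chaperone of this compartment, had 14473 to 22632 counts, and Herpud1, which acts in the degradation of misfolded proteins there, 7822 to 27505. At an unadjusted edgeR p below 0.05, the cochaperone gene Dnajb9 had a higher value in LP245/+ than in LP+/+ livers (1 of 24), and Dnajb9, Herpud1 and the elongation factor gene Ell2 in LP245/+ than in LPfl/+ livers (3 of 24), beside 3.55% and 4.07% of all genes.

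Of the other cell type lists, none had a gene past the cutoff. The T cell list (8 of 12 tested) summed to 3.57 to 8.35 CPM and the Kupffer cell and macrophage list (10 of 10 tested) to 352 to 508. In the former Cd4, a coreceptor, had 28 to 148 counts, the kinase gene Lck 13 to 32 and Trac, a T cell receptor constant gene, 2 to 22. Lck had a higher value at an unadjusted edgeR p below 0.05 in LP245/+ against LP+/+ and in LPfl/+ against LP+/+ (1 of 8 in each), beside 3.55% and 4.22% of all genes. In the latter the Kupffer cell lectin gene Clec4f had 2305 to 3755 counts, the lysozyme gene Lyz2 1785 to 2430 and the growth factor receptor gene Csf1r 1347 to 2367. In LP245/+ against LPfl/+, 4 of the 10 macrophage genes had a lower value at an unadjusted edgeR p below 0.05, beside 4.44% of all genes. They were the complement genes C1qa (log2 fold change -0.41) and C1qb (-0.45), the lysosomal gene Cd68 (-0.38) and the complement receptor gene Vsig4 (-0.33). Their part in the immunoglobulin values was not tested. The hepatocyte list (10 of 10 tested) and the list of stellate cells and cholangiocytes (8 of 8 tested) were at 123300 to 160600 and 224 to 302 CPM. The most counted hepatocyte genes were those of the plasma proteins albumin (Alb, 2118608 to 3529101), apolipoprotein B (Apob, 369271 to 560764) and transthyretin (Ttr, 164538 to 282821). Those of the other list were Dcn, a matrix proteoglycan gene (4618 to 5807), Lrat, which stores vitamin A (792 to 1376), and Spp1, the osteopontin gene (487 to 930). Among the hepatocyte genes, the urea cycle gene Ass1 had a lower value in LPfl/+ than in LP+/+ livers and the transcription factor gene Hnf4a a higher one in LP245/+ than in LPfl/+ livers at an unadjusted edgeR p below 0.05 (1 of 10 in each), beside 2.67% and 4.07% of all genes. In the list of gut epithelium and lymphoid tissue (5 of 8 tested), the germinal center factor gene Bcl6 had 326 to 1927 counts, the proliferation gene Mki67 137 to 279 and the stem cell marker gene Lgr5 131 to 312. At an unadjusted edgeR p below 0.05, Mki67 had lower values in LP245/+ and in LPfl/+ than in LP+/+ livers, and Spic, a transcription factor gene of red pulp macrophages, a higher value in LPfl/+ than in LP+/+ and a lower one in LP245/+ than in LPfl/+ livers (1 of 5 in each direction and comparison). Over all genes 2.38% were lower in LP245/+ and 2.67% in LPfl/+ than in LP+/+, 4.22% higher in LPfl/+ than in LP+/+ and 4.44% lower in LP245/+ than in LPfl/+. Muc2, a mucin of gut goblet cells, had 2 counts in LP+/+ replicate 3, 1 in LP245/+ replicate 1 and 0 elsewhere.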

How the data were processed

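RNA from flash-frozen livers was sequenced as strand-specific total RNA libraries with 76-base paired reads. The authors aligned reads to GRCm38 with STAR and deposited raw counts per gene. The GENCODE release and the strand counted were not given in the sources used here, so reads of Iglv1, Iglc1 and Iglc3 may not be told apart from those of an overlapping antisense gene, and Igkc and Iglc2 each overlap a gene on their own strand. Ensembl identifiers were matched without version suffix to GENCODE M21, which named 49326 of 49585 and left 259 without a symbol. Every column matched a liver (0 unmatched). The genes and gene lists were chosen with earlier results of these data known. Replicates were separate livers per the labels.

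edgeR 4.0.16 in R 4.3.3 (glmQLFit, glmQLFTest, TMM, filterByExpr) was fitted to all 8 livers with Benjamini-Hochberg adjustment over 16496 genes. On simulated data for LP245/+ against LP+/+ with 16496 genes it recovered 192 of 200 genes changed by 2 on the log2 scale, with 2 false calls, and made 0 calls without a change. Every simulated gene had the same spread, lower than that of the 11 immunoglobulin genes tested (median biological coefficient of variation 0.43). The recovery is therefore no measure of power for these genes. DESeq2 1.42.0, used by the authors, was an alternative, beside other normalizations, filters, covariates and left-out livers. Intervals are exact (Clopper-Pearson, 95%), and the limit for a count of 0 is 3 counts. Livers of 1 genotype differed beyond sampling noise, so none was merged.

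Named were all constant members, the 10 heavy V, 10 kappa V and 3 lambda V members with the highest sums (2 lambda V genes were members), the leading V genes of each liver, members past the cutoff, the 3 members of lowest unadjusted p per comparison, and of each list the 3 most abundant genes and any past the cutoff. List genes named beyond these are defining genes of a cell type, or were chosen after their values were seen (Slamf7, Cd79b, Spib, Cr2, C1qa, C1qb, Cd68, Vsig4, Ass1, Hnf4a, Spic, Fcgr4, Fcrl1, Dnajb9, Ell2, Fcgrt, Fcgr2b, Tnfsf13, Tnfsf13b and Muc2). Sequences were cut from the GENCODE M21 transcripts with Python 3.11.15, and identity was taken from global alignments in Biopython 1.88. Some genes of the lists are not reported here.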

Additional observations from a re-analysis of the deposited data

How the results depend on the processing

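No immunoglobulin gene was called under any alternative: DESeq2, DESeq2 size factors in edgeR, no filter on low counts, a minimum of 10 counts per liver, only the 2 genotypes compared, no fold change cutoff, a replicate block, the series of sample numbers as covariate, or leaving out livers (0 called in each, range 0 to 0). Over all genes, calls in LP245/+ against LP+/+, LPfl/+ against LP+/+ and LP245/+ against LPfl/+ numbered 1, 0 and 0 as reported, 10, 9 and 56 by DESeq2, 20, 14 and 122 without the filter, 3, 3 and 10 with the series of sample numbers, 51 in the last with only its 2 genotypes, and up to 5, 59 and 47 with 1 liver left out (without LP245/+ replicate 3, then LP+/+ replicate 1). The labels do not pair livers by replicate number, and deviations of same-numbered livers correlated at -0.13 to 0.07, so the numbers were taken not to pair them. With the replicate block 0 genes were called in each comparison, and log2 fold changes changed sign for Igkc (0.022 in LP245/+ against LP+/+, 0.16 in LPfl/+ against LP+/+, -0.13 in LP245/+ against LPfl/+) and, in LP245/+ against LPfl/+, for Ighg2c (-0.17), Ighg2b (-0.17) and Iglc1 (-0.19). With the series of sample numbers as covariate, signs changed for Igkv1-117 (-0.31 in LP245/+ against LP+/+), for Ighg2b (-0.024) and Igkc (0.18) in LPfl/+ against LP+/+, and in LP245/+ against LPfl/+ for Igha (-0.17), Ighg2c (-2.33), Ighd (-0.087), Igkv1-110 (-1.08) and Igkc (-0.55). Igkv1-117 in LP245/+ against LP+/+ was -0.0073 by DESeq2, -0.0088 with its size factors and -0.0017 without a filter. Without LP+/+ replicate 3 and LP245/+ replicate 3, chosen after seeing the data, the values were -0.56 (Ighm), 0.63 (Ighg2c), -0.40 (Ighg2b) and 0.30 (Igkc) in LP245/+ against LP+/+, 0.015 (Ighg2c) and 0.25 (Igkc) in LPfl/+ against LP+/+, and -0.59 (Ighg2b) in LP245/+ against LPfl/+. With each liver left out in turn, log2 fold changes that changed sign ranged, where the gene passed the filter, for these genes in LP245/+ against LP+/+: Ighm -0.50 to 0.70, Ighg2c -2.90 to 1.34, Ighg2b -0.26 to 0.94, Igkv1-117 -0.31 to 0.34, Igkc -0.52 to 0.71, Iglc1 -0.21 to 1.03. In LPfl/+ against LP+/+, Igha -0.11 to 0.85, Ighg2c -4.13 to 0.018, Ighg2b -0.14 to 0.68, Igkc -0.87 to 0.25, Iglc1 -1.26 to 0.79. In LP245/+ against LPfl/+, Igha -0.14 to 0.82, Ighg2b -0.59 to 0.73, Iglc1 -0.43 to 1.53. Igkv1-110, Igkv5-39 and Iglv1 did not pass the filter without LP+/+ replicate 3. Without filter and this liver together, also chosen after seeing the data, Igkv1-110 was at 0.81 in LP245/+ against LP+/+, and the other values of these genes kept their sign. Where a liver left out leaves LPfl/+ with 1, that liver is assumed to vary like the other groups. The effective number of V genes over all V genes with a count was 18.5, 24.2 and 24.2 for the heavy locus and 9.44, 30.1 and 17.5 for the kappa locus in LP+/+, LPfl/+ and LP245/+, and from the Shannon entropy over the 10 member genes of each locus it was 4.75 for the heavy locus in LPfl/+ and 4.36, 5.36 and 6.29 for the kappa locus. The causes of these shifts were not tested. With livers left out, means in LP+/+, LPfl/+ and LP245/+ ranged over 25.1 to 43.7, 17.1 to 21.3 and 25.5 to 43.5 for summed CPM, 5.32% to 10.5%, 14.0% to 31.3% and 12.2% to 22.1% for IgA shares, and 88.8% to 92.2%, 87.5% to 89.8% and 89.1% to 91.0% for kappa shares, with the IgA share at 5.32% without LP+/+ replicate 2 and 14.0% without LPfl/+ replicate 1. Low counts limited precision, since 22 of 33 genes did not pass the filter and V shares in LPfl/+ rest on 42 to 76 counts per locus.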

Other observations

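Outside the V and C genes, the J segments had 36 counts in all over 10 of 14 genes, and Igkj4 (12), Igkj5 (9) and Igkj3 (7) held most of them. Of the Igkj3 counts, 5 were in LP245/+ replicate 3 and 2 in LP+/+ replicate 3. The 19 D genes had 0 counts, and 155 V pseudogenes had 16. Reads of V genes were at most 26.4% of constant gene reads for the heavy locus and 39.7% to 71.4% for the kappa locus, in counts without division by length, with the highest heavy value in LP+/+ replicate 3.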
